A study of Homo sapiens with 2 samples.

Results

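Mitochondrial protein import and mitochondrial proteolysis were examined as a family of 37 genes out of 18239 genes with at least 1 probe set of a single annotated symbol. Members were chosen among these by gene symbol: all TIMM and TOMM genes with a number in the symbol, and 14 named peptidases and proteases. TOMM7 and TIMM23B, read only by probe sets with several symbols, are therefore not among the 37. The family was picked with the differences between these same 2 arrays known, so every difference given is a description. The cells were GFP-SAS, a green fluorescent derivative of the SAS line, which was established from a squamous cell carcinoma of the human tongue. The first group received an antisense oligonucleotide of LNA and DNA that targets miR-361-3p, and the second, the control, received a non-target LNA/DNA oligonucleotide. Both groups were treated at 25 nM for 24 h, and total RNA was measured on 3′ expression arrays. With 1 array per group there is no replicate error, and no p-value is given.

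Nearly all mitochondrial proteins are made in the cytosol and pass the outer membrane through the TOM complex. From there the small TIM chaperones, the carrier translocase TIM22 or the presequence translocase TIM23 take them to their place, and peptidases cut off the targeting sequences. Proteases of the matrix and the inner membrane then remove damaged or surplus proteins and cut regulators such as OPA1, which shapes the inner membrane. In carcinoma cells, as in other dividing cells, this machinery serves the growth of mitochondria.

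The microRNA that the oligonucleotide is directed against is given by sequence, because pairing of its seed with messenger RNAs is how a microRNA finds its targets. Capitals mark the seed, bases 2 to 8, and the sequence is that of RefSeq on GRCh38.p14, chrX:85903641-85903663, minus strand. Whether a member's messenger RNA holds a matching site was not tested, since no transcript sequences were used here.
hsa-miR-361-3p: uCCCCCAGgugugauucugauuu

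Promoters are shown for the pair of members with the lowest differences, MIPEP and IMMP1L, and the pair with the highest, TIMM44 and CLPX. Each runs from 250 bases before to 50 bases after the RefSeq start of the gene on GRCh38.p14. The 4 regions are chr13:23889351-23889650, chr11:31509573-31509872, chr19:7943617-7943916 and chr15:65185293-65185592, all on the minus strand. Capitals mark 3 motifs searched on both strands: GCGCNTGCG, a core of the NRF1 site, CCGGAAG, an ETS site bound by GABP, and AANATGGCG, a core of the YY1 site. NRF1 and GABP are known as activators of nuclear genes for mitochondrial proteins.
MIPEP: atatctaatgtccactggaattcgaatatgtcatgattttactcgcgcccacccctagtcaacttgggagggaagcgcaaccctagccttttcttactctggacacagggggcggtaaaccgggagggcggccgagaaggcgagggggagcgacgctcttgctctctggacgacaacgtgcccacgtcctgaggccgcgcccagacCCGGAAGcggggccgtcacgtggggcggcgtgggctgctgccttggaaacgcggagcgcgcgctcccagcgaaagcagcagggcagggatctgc
IMMP1L: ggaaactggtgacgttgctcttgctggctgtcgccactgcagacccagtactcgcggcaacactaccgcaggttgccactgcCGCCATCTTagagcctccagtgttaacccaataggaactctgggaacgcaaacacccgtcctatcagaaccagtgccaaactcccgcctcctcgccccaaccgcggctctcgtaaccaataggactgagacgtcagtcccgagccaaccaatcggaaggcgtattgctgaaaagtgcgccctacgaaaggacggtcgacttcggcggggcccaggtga
TIMM44: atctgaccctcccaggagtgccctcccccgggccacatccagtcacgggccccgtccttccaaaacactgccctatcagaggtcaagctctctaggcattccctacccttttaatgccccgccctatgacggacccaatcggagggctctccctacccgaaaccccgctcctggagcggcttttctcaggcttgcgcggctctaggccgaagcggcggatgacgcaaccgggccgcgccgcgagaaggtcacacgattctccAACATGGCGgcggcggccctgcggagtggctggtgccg
CLPX: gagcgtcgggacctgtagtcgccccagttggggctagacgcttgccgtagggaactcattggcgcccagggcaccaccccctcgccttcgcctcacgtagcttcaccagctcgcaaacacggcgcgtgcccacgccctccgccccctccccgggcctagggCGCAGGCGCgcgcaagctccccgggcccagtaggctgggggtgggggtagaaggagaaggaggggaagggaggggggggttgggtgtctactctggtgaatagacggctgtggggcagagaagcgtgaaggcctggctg
Each of these windows held a single motif, with the GABP letters in MIPEP, the YY1 letters in IMMP1L and TIMM44, and the NRF1 letters in CLPX. Of the 33 members with a promoter in the table, 23 held at least 1 of the motifs and 10 held none. The GABP letters were found in 13 members (39.4%), against 10.6% of 27305 promoters of all genes and 18.9% of the 9281 promoters of measured genes. The NRF1 letters were found in 9 members (27.3%), against 7.78% of all promoters and 14.6% of those of measured genes. SPG7, whose level was lower on the anti-miR array, held the NRF1 letters 3 times. The YY1 letters were found in 5 members (15.2%), against 3.29% of all promoters and 6.94% of those of measured genes. The 33 members include TOMM20L and TOMM40L, which were not measured, and TOMM40L is among the 5 with the YY1 letters. Members measured with the GABP letters had a median log2 difference of 0.20 (13 genes), and those without them 0.33 (18 genes). For the NRF1 letters the medians were 0.04 with them (9 genes) and 0.24 without (22 genes). For the YY1 letters they were 0.07 with them (4 genes) and 0.20 without (27 genes). Among members past 1.5-fold, the GABP letters were found in 1 lower and 0 higher ones, the NRF1 letters in 2 lower and 1 higher, and the YY1 letters in 1 lower and 1 higher. The median GC content was 65.3% in the promoters of members, against 58% in all promoters. The part of GC content in the shares with a motif was not tested. A match of letters is not shown to be a bound site.

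Of 21 measured TIMM and TOMM genes, 18 had a higher value on the anti-miR array, against 62.3% of all measured genes, and the median log2 difference was 0.31. The 18 include TIMM23, whose direction is not settled. Of the 21, 19 had a genomic span at or below the median (27.6 kb), where the share of all genes was 81.9%. Of 14 protease genes, 5 had a higher value and 9 a lower one, with a median of -0.10. Of these 14, 11 lay above the median span, where 42.8% of all genes had a higher value. The ranges overlapped, at -0.90 to 0.94 for TIMM and TOMM genes and -3.11 to 0.71 for proteases, and the difference between these sets was not tested. The strongest decreases were in genes that trim imported proteins: MIPEP was 8.64-fold lower and IMMP1L 2.74-fold lower on the anti-miR array. Both reached the array's median level only on the control array, where they were higher. The strongest increases were in TIMM44, at 1.92-fold, and CLPX, at 1.63-fold. RNA came from whole cultures, so fewer cells with a transcript and less of it per cell cannot be told apart. Differences here are the log2 value of the anti-miR array minus that of the control array, averaged over those probe sets of a gene that were at or above the median of 1 array or both.

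Counted at 1.5-fold (0.58 on the log2 scale), 4 of 35 measured members were higher (11.4%) and 6 were lower (17.1%). Among all 11272 measured genes the shares were 8.23% higher and 14.2% lower, so the family's shares lay near those of the arrays as a whole. At 2-fold 0 members were higher and 2 lower, against 1.23% and 6.98% of all genes. A difference above 0 was found in 23 of 35 members and in 62.3% of all genes. The median member differed by 0.20 and the median gene by 0.13. With that 0.13 subtracted, TIMM44 alone was higher, 7 members were lower, and TOMM20 changed sign. These shares, 2.86% and 20%, stood beside 4.43% and 17.3% of all genes under the same centring. Higher genes then made up 12.5% of the members past 1.5-fold, compared with 40% before.

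**Figure D1:**
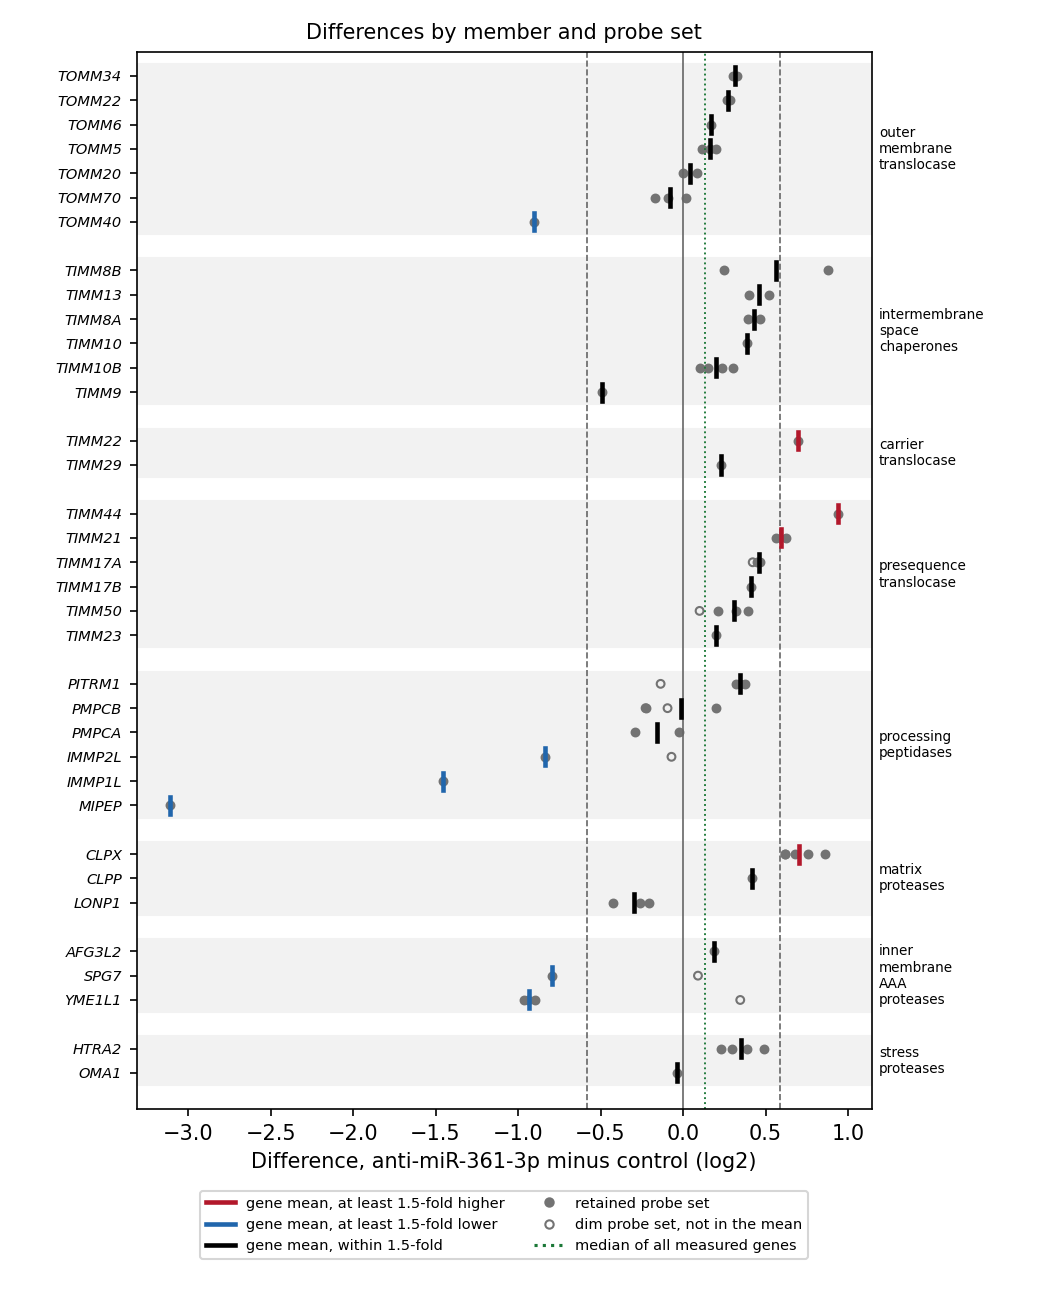
Log2 difference, anti-miR-361-3p minus control, for 35 measured members grouped by role. Bars mark gene means, filled points retained probe sets, open points dim probe sets left out of the mean, dashed lines 1.5-fold and the dotted line the median of all measured genes (0.13). MIPEP lies far to the left at -3.11, and the presequence translocase genes all lie right of 0.

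At the outer membrane, TOMM20, TOMM22 and TOMM70 are receptors and TOMM40 forms the channel. TOMM40 had a level of 5.46 on the anti-miR array, against 6.37 on the control array (1 probe set), which is 1.87-fold lower. Both levels were below the brightest nonspecific control of the same array (7.16 and 6.87), so this fold is not an exact size. Read by single-symbol probe sets, TOMM40 was the only TIMM or TOMM gene past 1.5-fold in that direction. For TIMM23, brighter probe sets with more than 1 gene entry, left out by that rule, differed by -0.54, -0.61 and -0.68. The last 2 of these were past 1.5-fold. The receptor TOMM20 had gene levels of 8.74 and 8.70 (anti-miR and control arrays), a difference of 0.04 ± 0.06 (SD over 2 probe sets). TOMM70, which receives carrier proteins from cytosolic chaperones, had levels of 7.54 and 7.62 in the same order, and TOMM22 had 9.72 and 9.45. These receptors differed by -0.08 ± 0.09 (3 probe sets) and 0.27 ± 0.01 (2 probe sets), so all 3 receptors stayed well within 1.5-fold. The small subunits TOMM5 and TOMM6 differed by 0.16 ± 0.04 (3 probe sets) and 0.17 (1 probe set), close to the median gene. TOMM34, a cytosolic co-chaperone of import, differed by 0.31 ± 0.02 (2 probe sets). TOMM20L and TOMM40L, paralogs of the receptor and the channel, had no probe set that reached the median of either array and were not measured. Their probe sets ranged from 2.73 to 4.57 on the anti-miR array and from 2.80 to 4.43 on the control array.

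The small TIM chaperones shield hydrophobic proteins in the space between the membranes. TIMM9 and TIMM10 work as a pair, as do TIMM8A and TIMM13. TIMM10 had levels of 9.15 on the anti-miR array, with 8.77 on the control array, a difference of 0.39 (1 probe set). Its partner TIMM9 had 7.55 on the anti-miR array, with 8.04 on the control array, a difference of -0.49 (1 probe set). The members of this pair therefore lay on opposite sides of 0, each within 1.5-fold. TIMM9 passed 1.5-fold as a lower gene once the median gene was subtracted (-0.62). TIMM8A (0.43 ± 0.05) and TIMM13 (0.46 ± 0.09, SD over 2 probe sets each) differed by nearly the same amount. TIMM8B had the highest mean of this group at 0.56, just short of 1.5-fold, but its probe sets stood at 0.25 and 0.88. TIMM10B, a chaperone bound to the carrier translocase, differed by 0.20 ± 0.09 (4 probe sets). In all, 5 of 6 chaperones had a higher value on the anti-miR array, with 0 past 1.5-fold. A higher value was found in 62.3% of all measured genes. All 6 chaperone genes had a genomic span at or below the median of measured genes (27.6 kb), where the share was 81.9%.

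TIMM22 forms the channel that inserts carrier proteins into the inner membrane, and TIMM29 is a further subunit of the same complex. TIMM22 had 6.92 on the anti-miR array, against 6.23 on the control array (1 probe set), or 1.62-fold higher. TIMM29 had 7.67 and 7.45 in the same order, a difference of 0.23 (1 probe set). Both subunits had a higher value, as did 62.3% of all measured genes. TIMM22 passed 1.5-fold, though not once the median gene was subtracted (0.56).

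All 6 members of the presequence translocase had higher values on the anti-miR array, also after subtraction of the median gene or of a lowess trend on level. Without subtraction, 62.3% of all measured genes had a higher value. The share was 81.9% among genes with a genomic span at or below the median (27.6 kb), which holds for all these members but TIMM23. TIMM44, which ties the matrix Hsp70 motor to the channel, had 7.20 on the anti-miR array, against 6.26 on the control array (1 probe set). Its difference was 0.94, with a control level below the highest nonspecific control probe set of that array (6.87). TIMM21, which links this complex to the outer membrane and the respiratory chain, had 8.68 on the anti-miR array, against 8.08 on the control array. Its difference, 0.60 ± 0.04 (SD over 2 probe sets), was 1.51-fold and only just past the threshold. The channel partners TIMM17A and TIMM17B are paralogs, encoded on chromosomes 1 and X. They differed by 0.46 ± 0.01 (2 probe sets) and 0.41 (1 probe set), within 1.5-fold and close to each other. The receptor TIMM50 differed by 0.31 ± 0.09 (3 probe sets). TIMM23, the channel itself, had 5.39 on the anti-miR array, with 5.19 on the control array, a difference of 0.20 (1 probe set).

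The value of TIMM23 depends on which probe sets are read. Another 3 probe sets are annotated with more than 1 gene entry, all of them TIMM23 or its near copy TIMM23B, and were left out by the rule on single symbols. They were lower on the anti-miR array, with levels of 10.5, 8.68 and 7.81, against 11.0, 9.36 and 8.42 on the control array in the same order. The differences were -0.54, -0.68 and -0.61. All 3 lay above the nonspecific control probe sets on both arrays, which the single-symbol probe set did not, and on the other side of 0 from it. Added to the TIMM23 mean, an alternative chosen after seeing the data, they gave a difference of -0.41, so the direction of TIMM23 is not settled and the count of 6 of 6 rests on the single-symbol probe set. For TOMM6 the 4 probe sets shared in the annotation with PRICKLE4 differed by 0.17 to 0.23, close to its own 0.17. The probe set shared by TOMM7 and C4orf46 differed by 0.28.

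Of 6 processing peptidases, 3 were at least 1.5-fold lower and 0 higher, against 14.2% and 8.23% of all measured genes. The shares were 25.4% and 3.84% among genes with a genomic span above the median (27.6 kb), which holds for all these peptidases but PMPCA. The 3 lower ones, MIPEP, IMMP1L and IMMP2L, lay below the median of the anti-miR array (4.64). They were retained only through the control array, where they were higher, so the filter itself favoured a lower call. None of the 3 exceeded the nonspecific control probe sets of the anti-miR array (up to 7.16). PMPCA and PMPCB, the subunits of the processing peptidase that removes presequences, differed by -0.16 ± 0.19 and -0.01 ± 0.30 (SD over 2 probe sets each). Their brightest probe sets had 9.61 and 9.62 on the anti-miR array, against 9.90 and 9.85 on the control array, differed by -0.29 and -0.23. MIPEP, the intermediate peptidase that trims some precursors a second time, had 4.22 on the anti-miR array, against 7.33 on the control array (1 probe set). The difference was -3.11, and as the lower level lies within the range of those controls, neither its size nor its rank among genes is exact. IMMP1L and IMMP2L form the inner membrane peptidase. IMMP1L had 3.85 on the anti-miR array, against 5.31 on the control array (1 probe set), a difference of -1.46. IMMP2L had 4.20 on the anti-miR array, against 5.04 on the control array, a difference of -0.84 or 1.79-fold. Both subunits were thus lower by over 1.5-fold, and both were dim. A second IMMP2L probe set, with 2.60 on the anti-miR array, against 2.67 on the control array, differed by -0.07, and with it in the mean IMMP2L differed by -0.45, short of 1.5-fold. PITRM1, which degrades the cut presequences, went the other way at 0.35 ± 0.03 (3 probe sets).

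**Figure D2:**
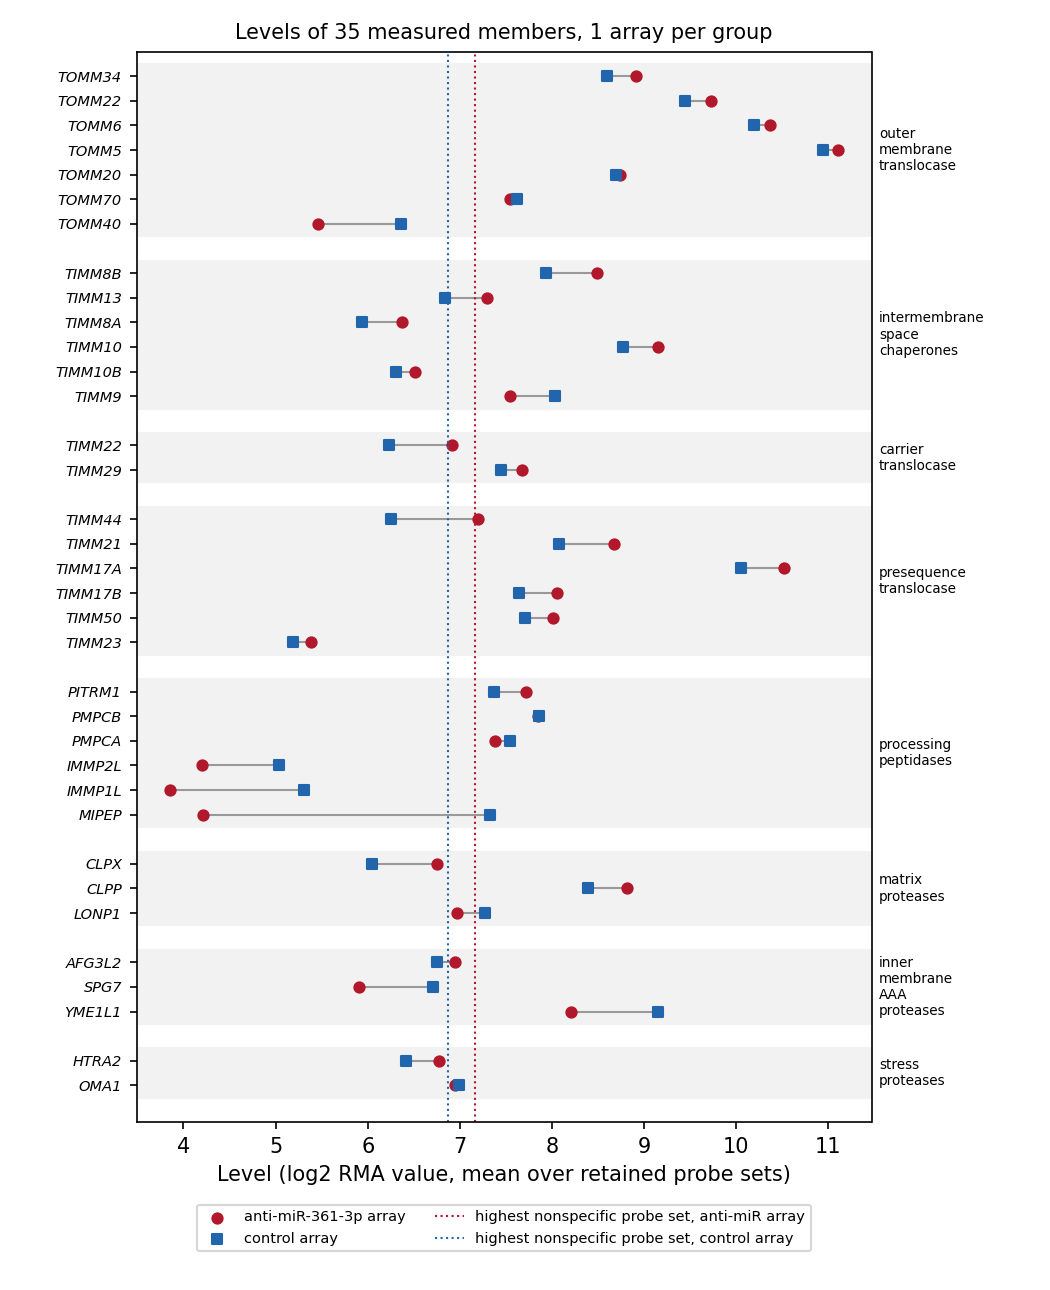
Level of each measured member on the anti-miR-361-3p array (circles) and the control array (squares), as log2 RMA values averaged over retained probe sets, with dotted lines at the highest nonspecific control probe set of each array (7.16 for anti-miR and 6.87 for control). MIPEP lies at 4.22 on the anti-miR array, with 7.33 on the control array, and YME1L1 lies right of both lines on both arrays.

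In the matrix, LONP1 is an ATP-driven protease, and CLPX unfolds substrates for the peptidase CLPP. CLPX was higher at all 5 of its probe sets, by 0.62 to 0.86, with a mean of 0.71 ± 0.10 (SD). Its levels ranged from 5.90 to 7.47 on the anti-miR array, against 5.22 to 6.72 on the control array. CLPP had 8.81 on the anti-miR array, with 8.39 on the control array, a difference of 0.42 (1 probe set). LONP1 had 6.97 and 7.27 in the same order, a difference of -0.30 ± 0.11 (3 probe sets). The partners CLPX and CLPP therefore lay on the same side of 0 and LONP1 on the other, with CLPX alone past 1.5-fold.

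YME1L1, whose active site faces the space between the membranes, was the lower member that exceeded these controls on both arrays. Its 3 retained probe sets had levels of 7.65, 8.18 and 8.81 on the anti-miR array, against 8.55, 9.14 and 9.75 on the control array in the same order. The differences agreed closely, at -0.93 ± 0.03 (SD) or 1.91-fold lower, and all levels lay above the nonspecific control probe sets. A further, dim probe set, at 3.73 and 3.39, differed by 0.35. Another probe set lists YME1L1 together with FKBP15 and CDC26 and was left out by the rule on single symbols. It had 9.68 on the anti-miR array, with 9.34 on the control array, above the nonspecific control probe sets of both. Its difference was 0.34, on the other side of 0 from the retained probe sets, and which of these genes it reads was not tested. AFG3L2 and SPG7 are partners in the protease that faces the matrix. SPG7 had 5.91 on the anti-miR array, against 6.71 on the control array (1 probe set), a difference of -0.80. AFG3L2 had 6.95 and 6.76 in the same order, a difference of 0.19 (1 probe set). The partners thus lay on opposite sides of 0, and SPG7 alone passed 1.5-fold. A second, dim SPG7 probe set differed by 0.09, and with it in the mean SPG7 differed by -0.35, short of 1.5-fold.

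OMA1, a protease switched on by mitochondrial stress that cuts OPA1 and DELE1, had 6.95 on the anti-miR array, with 6.99 on the control array, a difference of -0.04 (1 probe set). HTRA2, a serine protease of the space between the membranes that is released in apoptosis, differed by 0.35 ± 0.11 (4 probe sets). Neither of them came near 1.5-fold, in contrast to YME1L1, which also cuts OPA1. That difference between genes was not tested.

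How far the folds can be read depends on signal. A gene was taken as above background where its brightest retained probe set exceeded all 23 nonspecific control probe sets of that array. By this measure 21 of 35 measured members were above background on both arrays, 5 on a single array and 9 on neither. Among the 10 members past 1.5-fold, YME1L1 and TIMM21 were above background on both arrays. The other 5 lower members, MIPEP, IMMP1L, IMMP2L, TOMM40 and SPG7, were not shown to be above background on the anti-miR array. Of these, MIPEP alone was above background on the control array. The other 3 higher members, TIMM44, TIMM22 and CLPX, were not so on the control array, and TIMM22 on neither. Their folds are therefore not exact sizes. In addition, 7 of these 10 members rest on a single retained probe set. Of 19 members with at least 2 retained probe sets, 16 had all of them on a single side of 0.

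Members that were lower tended to be long genes. Span was not used to choose the members, but the differences were known, and span and difference go together over all genes. Genomic span, the distance from start to end of a gene in RefSeq, had a median of 27.6 kb over measured genes. Of 13 members above it, 5 were lower and 1 was higher, against 25.4% lower and 3.84% higher among all genes above it. Of 22 members at or below it, 1 was lower and 3 were higher, against 2.98% lower and 12.6% higher among all genes in that range. The members above this span were MIPEP (159 kb), IMMP1L (77.2 kb), IMMP2L (899.8 kb), SPG7 (49.4 kb), YME1L1 (44.3 kb) and 8 others, among them OMA1 (66.0 kb) and AFG3L2 (48.3 kb), which stayed within 1.5-fold. TOMM40, at 12.4 kb, was the short member that was lower, and CLPX, at 37.1 kb, the long one that was higher. Spearman's rho between span and difference was -0.57 over the 35 members and -0.49 over 11263 measured genes with a span, which share the same 2 arrays.

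Import genes and proteases also differed in span. The median span was 6.54 kb for the measured TIMM and TOMM genes and 46.3 kb for the proteases. Of 11 proteases above the median span 5 were lower, while 0 of the 3 at or below it passed 1.5-fold. Of 19 TIMM and TOMM genes at or below it, 17 had a higher value on the anti-miR array, near the 81.9% of all genes of that span. Neither of the 2 above it, TIMM23 and TOMM70, passed 1.5-fold, with TIMM23 read by its single-symbol probe set. On these arrays the role of a member and its span cannot be told apart.

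**Figure D3:**
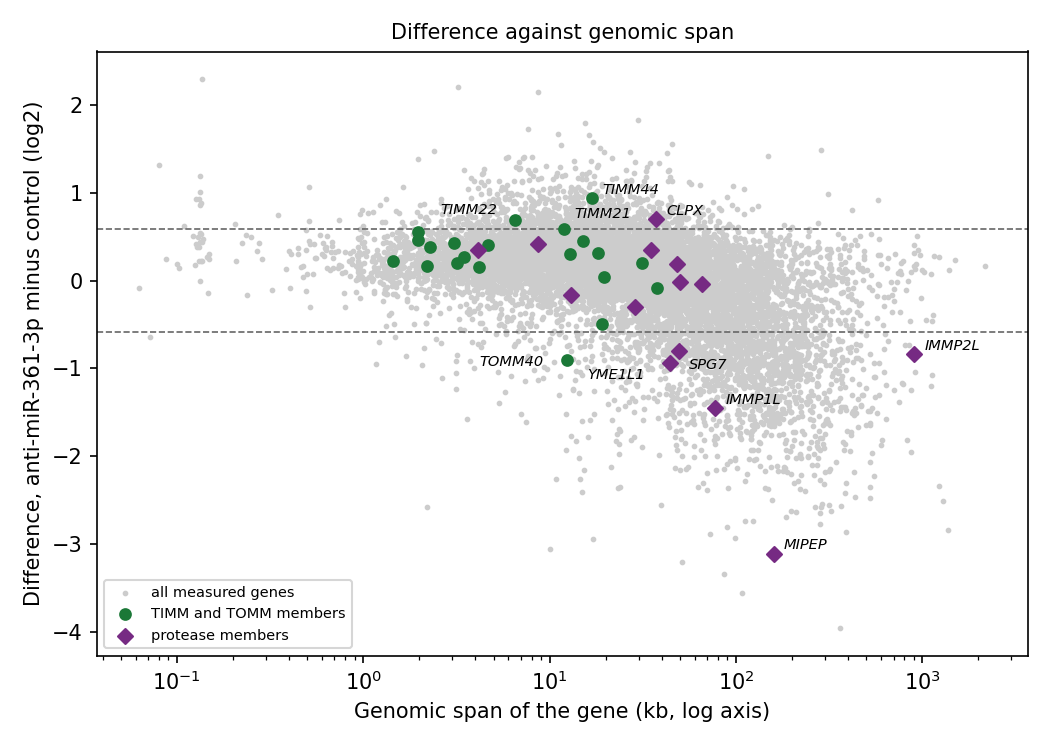
Log2 difference, anti-miR-361-3p minus control, against the genomic span of the gene in kb on a log axis, for TIMM and TOMM members (circles), protease members (diamonds) and all measured genes (grey points), with dashed lines at 1.5-fold. Among members, 5 of the 6 lower ones lie above the median span of 27.6 kb and TOMM40 lies below it.

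Another 41 genes that work with the family were listed, and 39 were measured. Of these 4 were at least 1.5-fold higher (10.3%) and 7 lower (17.9%), with a median of 0.17, again near the shares of all genes. OPA1 was lowest, with 5.64 on the anti-miR array, against 7.30 on the control array, a difference of -1.66 ± 0.28 (SD over 5 probe sets). XPNPEP3, an aminopeptidase that trims imported proteins further, differed by -1.57 (1 probe set). AGK, a subunit of the carrier translocase, differed by -1.15 ± 0.15 (2 probe sets), on the opposite side of 0 from TIMM22. MTX2, a metaxin of the outer membrane, and TIMMDC1, an assembly factor of complex I, differed by -0.94 and -0.90 (1 probe set each). TIMMDC1 carries no number after TIMM and so is not a member.

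The motor that pulls presequence proteins into the matrix had genes on both sides of 0. GRPEL1 and GRPEL2, which exchange the nucleotide of the motor Hsp70, differed by 0.62 ± 0.04 and 0.77 ± 0.01 (SD over 2 probe sets each). Together with TIMM44 they were past 1.5-fold on the higher side. DNAJC15, a co-chaperone of this motor, differed by -0.77 ± 0.61, with both of its 2 probe sets lower but by unlike amounts. DNAJA3, another co-chaperone of the mitochondrial Hsp70, named after its value was seen, differed by -0.61 ± 0.13 (3 probe sets), just past 1.5-fold. PAM16 (0.44), DNAJC19 (0.13 ± 0.37) and the Hsp70 itself, HSPA9 (0.18 ± 0.02), named after their values were seen, stayed within 1.5-fold. CHCHD4, the receptor of the disulfide pathway into the space between the membranes, differed by 0.75 ± 0.11 (2 probe sets). BCS1L, an AAA protein that inserts a subunit of complex III, was highest at 0.996 ± 0.028 (2 probe sets), or 1.99-fold. Of the 7 lower genes 6 lay above the median span, near the 89.5% of all lower genes that did, and of the 4 higher ones 0, against 23.3% of all higher genes.

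**Figure D4:**
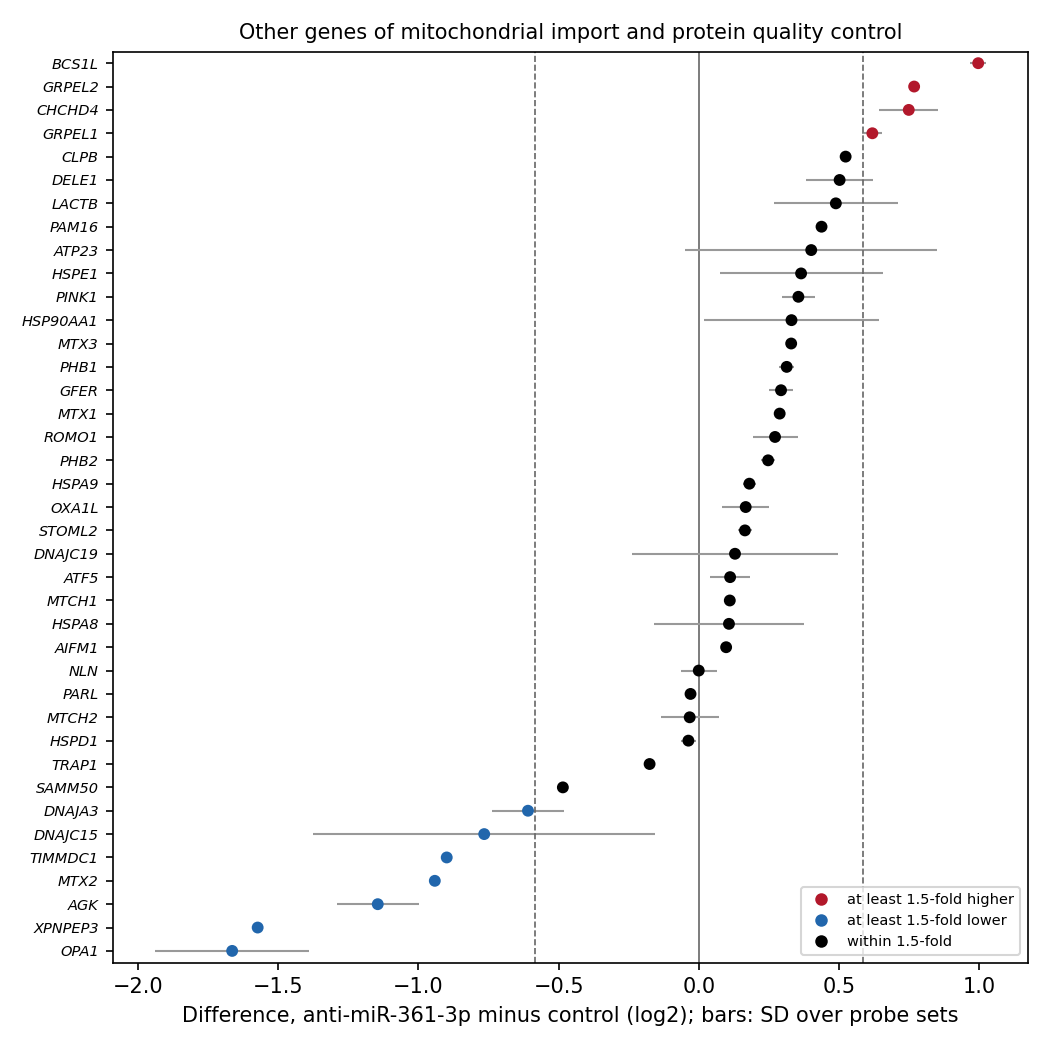
Log2 difference, anti-miR-361-3p minus control, for 39 other genes of mitochondrial import and protein quality control, with bars for the SD over probe sets where a gene has at least 2 and dashed lines at 1.5-fold. OPA1 is lowest at -1.66 and BCS1L highest at 0.996.

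Other mitochondrial families of mostly short genes gave a frame for these values. Of 77 measured mitochondrial ribosomal proteins (MRPL and MRPS genes), 10 were higher and 3 lower, with a median of 0.28 and a median span of 8.62 kb. Of 75 measured subunits of the respiratory chain and ATP synthase, 1 was higher (1.33%) and 3 were lower (4%). Their median difference was 0.25 and their median span 9.24 kb. A difference above 0 was found in 74.0% of the ribosomal proteins, 88% of these subunits and 85.7% of the TIMM and TOMM genes. The TIMM and TOMM genes, with 3 of 21 higher (14.3%), 1 lower (4.76%) and a median of 0.31, had a median close to both. Among all measured genes, 8.23% were higher and 14.2% lower at 1.5-fold. Among those at or below the median span, the shares were 12.6% and 2.98%. None of these comparisons could be tested with 1 array per group.

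Facts of the arrays that touch these values are as follows. Poly-A control transcripts, spiked in ahead of labelling, read higher in the anti-miR sample by 0.32 ± 0.19 (12 probe sets, SD), about the size of the median TIMM and TOMM difference (0.31). Hybridization controls, added after labelling, differed by 0.09 ± 0.10 (SD over 9 probe sets). The part of labelling in the members' differences was not tested. The gap between the 3′ and 5′ probe sets of GAPDH and ACTB, which widens with RNA degradation, moved by 0.03 and 0.04 from array to array. Of 10 squamous epithelial markers read here, 8 exceeded the nonspecific controls on both arrays, among them KRT5 (9.62 on the anti-miR array, with 9.76 on the control array). KRT14 (3.87 and 3.63) and DSG3 (6.02 and 5.97) did not. The 14 fibroblast, leukocyte and endothelial markers read here all lay within the nonspecific range, at no more than 5.35 on the anti-miR array, with 5.03 on the control array.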

How the data were processed

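The deposited table holds log2 expression values per probe set for 2 arrays, the output of RMA as run by the authors, per the submitters' processing notes. This method corrects background, equalises the distributions of arrays and summarises each probe set. The RMA version and genome build are not given in the sources used, and no detection calls were read. Per the labels' protocols, biotin labelling started from 10 ng of total RNA.

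Of 49386 probe sets, 93 were array controls, 45253 had a single symbol, updated through Entrez ID to RefSeq (GRCh38.p14), and 1327 had several symbols. Probe sets at or above the array's median (4.64 on the anti-miR array, 4.63 on the control array) on at least 1 array were retained, which left 24127 probe sets and 11272 genes. A gene's value is their mean. For the members, 67 of 79 probe sets were retained. The SD over probe sets is the spread of the array difference among the probe sets of a gene (pooled 0.29 over 6263 genes). It leaves out errors shared by all probe sets of an array and is not a replicate error. Precision is limited by having 1 array per group. The threshold was 1.5-fold.

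Members and gene lists were chosen with earlier results of these data known. All members were named, and up to 10 pathway genes past 1.5-fold were planned to be named. DNAJA3, beyond that number, and PAM16, DNAJC19 and HSPA9, within 1.5-fold, were added after their values were seen. Alternatives changed the filter, the gene value, the centring, the probe set types and the threshold. The code for gene means and calls was checked on simulated data with known differences, which tests the arithmetic and does not calibrate the 1.5-fold calls. Sequences and spans are RefSeq's. Computations ran in Python 3.11.15 with pandas 2.3.3, numpy 2.4.6, statsmodels 0.14.6 (lowess fraction 0.3), scipy 1.17.1 and matplotlib 3.10.9.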

Additional observations from a re-analysis of the deposited data

How the results depend on the processing

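No paired analysis was possible because there was only 1 array a group, and no array could be left out. Against 4 members higher and 6 lower, a filter at the 75th percentile gave 3 lower of 31 measured members (9.68%, against 18.8% of all genes). A filter above the nonspecific control probe sets gave 2 lower of 26, MIPEP and YME1L1 (7.69%, against 20.1% of all genes). Fewer members were measured in both, and both kept probe sets that passed on at least 1 array. Of the members past 1.5-fold under the nonspecific filter, MIPEP passed it only through the control array (7.33, with 4.22 on the anti-miR array). TIMM44 and CLPX passed it only through the anti-miR array. Centring on the median gene gave 1 higher (2.86%, against 4.43%), as it moves the threshold. Plain _at probe sets gave 1 higher and 2 lower among 7 measured members, against 9.25% and 14.7% of all genes. The 2-fold threshold gave 0 higher and 2 lower. Without a filter there were 4 higher and 4 lower of 37 (10.8% each, against 4.40% and 7.37%), with IMMP2L at -0.45 and SPG7 at -0.35, both short of 1.5-fold, and YME1L1 at -0.61. With the probe set of highest level TIMM21 fell short of the threshold at 0.57 and TIMM8B was at 0.25, and with plain _at probe sets TIMM8B passed it at 0.88. Higher genes made up 57.1% of the members past 1.5-fold with the 75th percentile filter and 60% with the nonspecific filter, compared with 40%. Dim lower members were no longer measured under either filter. Under the nonspecific filter TIMM22, a higher member, was not measured either. With a lowess trend the counts were 3 higher and 7 lower (8.57% and 20%, against 4.85% and 16.8%). No member past 1.5-fold changed sign under these settings. Weak signal over background limits most of the folds, and no detection calls were at hand.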
